A study of Drosophila melanogaster with 7 samples.

Results

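The clones described here are 62 cDNA features of a spotted array that could not be read as a single gene and whose mean log2 ratio between lola mutant and control embryos was at least 0.5 in size. They were found among the 1629 of 10227 features, control spots left out, that have no gene symbol (1112 features) or several (517 features) in the platform's table of probes and genes. The 62 were 3.81% of these 1629, and 184 of the 8598 features with a single symbol, 2.14%, were past the same threshold. A log2 ratio of 1 means a doubled amount of RNA in the mutant. In the mutant, 32 members were higher and 30 were lower. None of the 149 control spots, of plant sequence or fly genomic DNA, reached the threshold, and their means lay between -0.27 and 0.19. Members were thus chosen by the mean of their 7 ratios, so the size of the members' means is given as a description, without a test.

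RNA from whole Drosophila melanogaster embryos was co-hybridised in mutant and control pairs to 7 arrays carrying the Drosophila Gene Collection. Mutant embryos were homozygous for lolaORE76, a null allele with an early stop codon in the part common to all isoforms of Lola, a zinc-finger transcription factor of axon growth. Mutant and control embryos both carried w1118, the sca-GAL4 driver and the UAS-tau-eGFP reporter, and all were 10 to 12 hours old. Driver and reporter served to sort live embryos by fluorescence in the nervous system. Whether the stocks were otherwise alike is not stated. About 300 embryos went into each sample, and the pairs were collected independently. Mutant RNA was labelled with Cy5 on 3 arrays (1, 3 and 6) and with Cy3 on the remaining 4 (2, 4, 5 and 7). Both homologous chromosomes of the mutant carried the same lola allele, so loci linked to that allele cannot be told apart from lola itself. Embryos also receive Lola from the mother. Signs are given as mutant over control, which is likely but not certain, and are opposite to those deposited. Whole-embryo RNA does not separate fewer cells of a type from less RNA per cell.

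A long terminal repeat (LTR) retrotransposon is transcribed from its terminal repeat into a full-length RNA, which is reverse transcribed and inserted elsewhere in the genome. The fly genome holds many such families in many copies. A cDNA clone of a family hybridises with the RNA of all its copies, and a clone that contains a piece of an element can report the element in place of the host gene it is named for. Families are held down mainly by Piwi-interacting RNAs in the gonads and by small interfering RNAs in the body. For lola itself, 4 features had means from 0.01 to 0.65, and 2 of them passed the test as higher. A premature stop need not lower the RNA, so these features do not check the labels. Ratios on array 6 had the largest standard deviation, 0.427 over all features against 0.290 to 0.338 on the others. Their median absolute distance from the array's median was 0.170, within the range of the others, 0.156 to 0.175.

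By the list of clones that accompanied the study, the 62 members fell into 5 classes. There were 21 clones of 12 retrotransposons (8 higher, 13 lower), 1 of which also holds a gene, and 13 clones with several gene symbols and no element assigned (10 higher, 3 lower). Another 19 clones had no symbol on the platform but a gene in that list (13 higher, 6 lower), 2 were listed there as several sequences, and 7, all lower, had no assignment. The list was drawn up from clones that passed a test on these same arrays, so having no assignment partly reflects the test. A clone of an element that did not pass carries no element name here. The clones named below for an element, members or not, were thus all shifted by choice. In limma, 54 of the 62 passed at an adjusted p of 0.05, 30 higher and 24 lower, where 6.11% of all features passed, 3.59% higher and 2.52% lower. The rule used the same mean, so nothing is read from this count. All 7 ratios had a single sign in 48 members, against 9.7% of all features. A large mean of the same 7 ratios favours a single sign, so nothing is read from this contrast either.

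**Figure D1:**
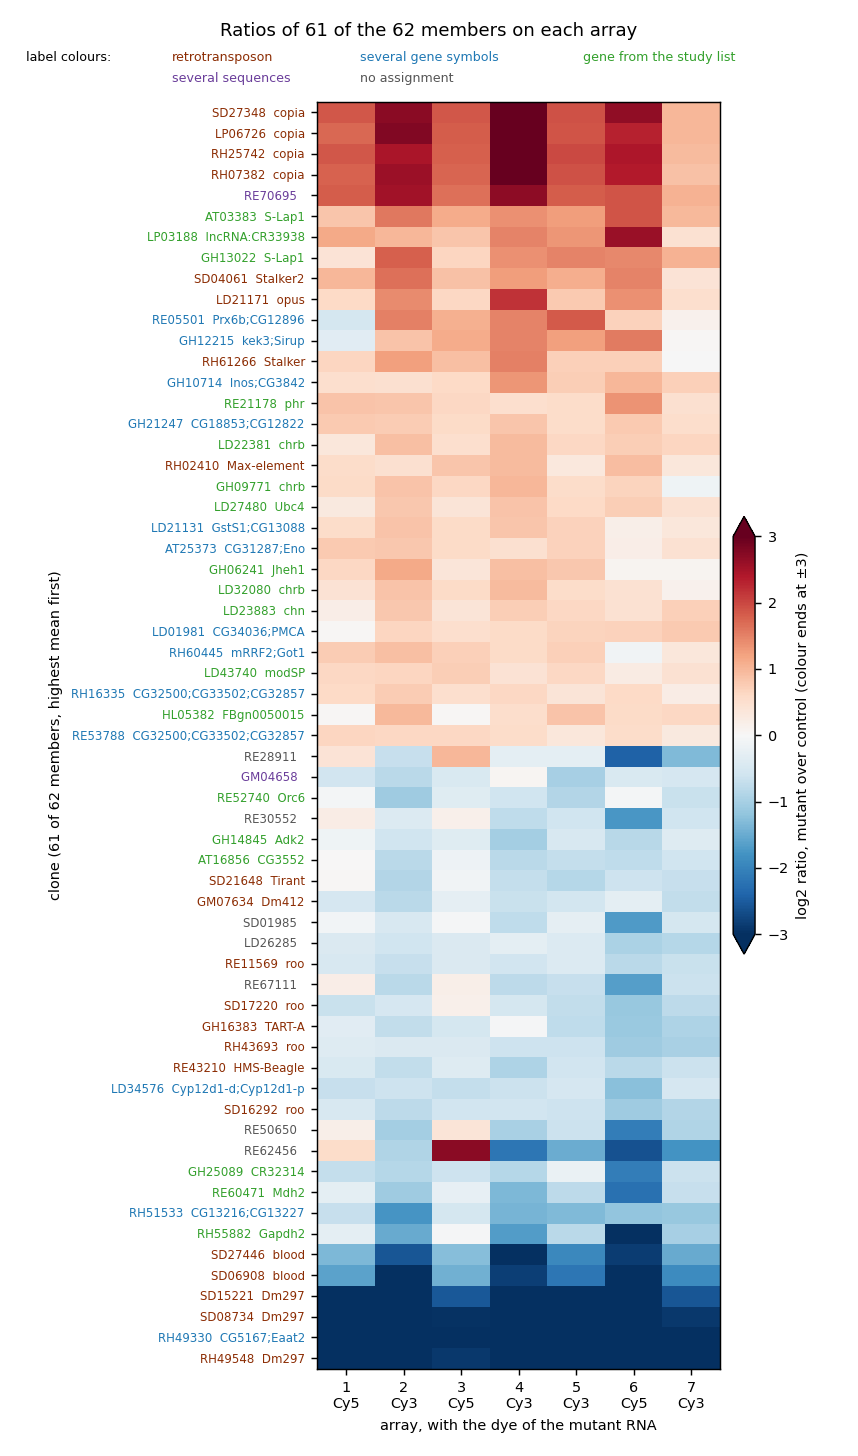
The log2 ratio, mutant over control, of 61 of the 62 members (rows, highest mean first) on each of the 7 arrays (columns, with the dye of the mutant RNA), with label colours for the 5 classes. The copia clones at the top and the Dm297 and blood clones at the bottom keep their colour on all 7 arrays, while RE62456 changes sign between array 3 and array 6; ratios beyond 3 in size share the end colour.

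Retrotransposon clones made up most of the largest differences. Of the 18 members with a mean of at least 1 in size, 11 were element clones, and of the 10 members of at least 2 in size, 9 were. Among all 10227 features, 14 reached a size of 2, of which 13 were assigned to an element and the other was the member RH49330. Members of 5 elements were higher and members of 7 were lower.

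Copia, the founding member of its superfamily of LTR elements and one that earlier work had tied to Lola, was represented by 4 members. Averaged over these clones on each array, the ratio was lowest on array 7 at 0.96, had a median of 1.92 and was highest on array 4 at 3.31. All 7 arrays were above 0, and the mean was 2.12 ± 0.75 (SD, n = 7 arrays), a 4.36-fold higher level. The clones came from 3 cDNA libraries, yet their means ran only from 2.08 to 2.21, and on no array did they spread by an SD above 0.154. The spread of copia was therefore between arrays and hardly between clones. The per-array profiles of the 4 clones correlated with r from 0.976 to 0.997 (6 pairs, 7 arrays, all clones sharing the same labelled RNA).

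Copia sequence was also found under the name of host genes. Clone RH25277 carries the symbol sls, the gene of a giant muscle protein, and had a mean of 2.17, and clone SD10530 carries CG5953 and had 2.14. Other clones of the same genes lay near 0, at 0.01, -0.05 and -0.02 for sls and at -0.07 for CG5953. The feature with the profile nearest to the member SD27348 was RH25277, with a root mean square difference of 0.0679 over the 7 arrays and a largest difference of 0.118. These clones were assigned to copia by the study's list and are no members only because each has a single symbol.

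Dm297, an LTR element of the gypsy superfamily, gave the lowest values. Averaged over its 3 members, the ratio was -4.67 on array 6, had a median of -3.39 and came up to -2.81 on array 3. No array came near 0, and the mean of -3.72 ± 0.83 (SD, n = 7) is a 13.2-fold lower level. The clone means were -3.90 for RH49548, -3.87 for SD08734 and -3.39 for SD15221, a spread between clones that was larger than for copia. On single arrays the 3 clones differed by up to 0.828. With correlations from 0.979 to 0.986 (3 pairs), their profiles were nearly parallel.

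The other 4 clones assigned to Dm297, each with a single gene symbol, formed a graded series. RE22593 (CG7231) had a mean of -2.91, GH26082 (udd) of -2.58, SD10603 (CG31689) of -1.82 and SD03976 (KrT95D) of -0.76. Other clones of KrT95D were at 0.11 and -0.03. How much of each clone is element sequence was not measured here, and its part in this order was not tested.

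The other element with 2 strongly lower members was blood, likewise of the gypsy superfamily. SD06908 ran from -3.82 on array 6 over a median of -2.17 to -1.43 on array 3, and SD27446 from -3.07 on array 4 over -1.93 to -1.27 on array 3. Both were below -1 on every array, and the element mean was -2.23 ± 0.78, a 4.70-fold lower level. They differed by up to 0.966 on a single array. Clones with blood sequence and a gene symbol were much closer to 0, at -0.52 for SD17695 (Ets96B) and -0.46 for SD02173 (dpy).

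Roo, an LTR element of the BEL superfamily, had 4 members with small and similar values. RE11569 had a mean of -0.58, SD17220 of -0.60, RH43693 of -0.65 and SD16292 of -0.71. The average of these clones was lowest on array 6 at -1.02, had a median of -0.60 and was highest on array 3 at -0.32, with a mean of -0.64 ± 0.23. On array 3, SD17220 was the exception among the 4 with a ratio of 0.16. Correlations between the clones were looser than for copia and Dm297, from 0.60 to 0.875 (6 pairs). The 4 roo clones outside the rule were weaker and had the same sign, at -0.46, -0.33, -0.32 and -0.29. Only clones that passed the study's test could be named as roo, so an unshifted roo clone would not appear here.

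**Figure D2:**
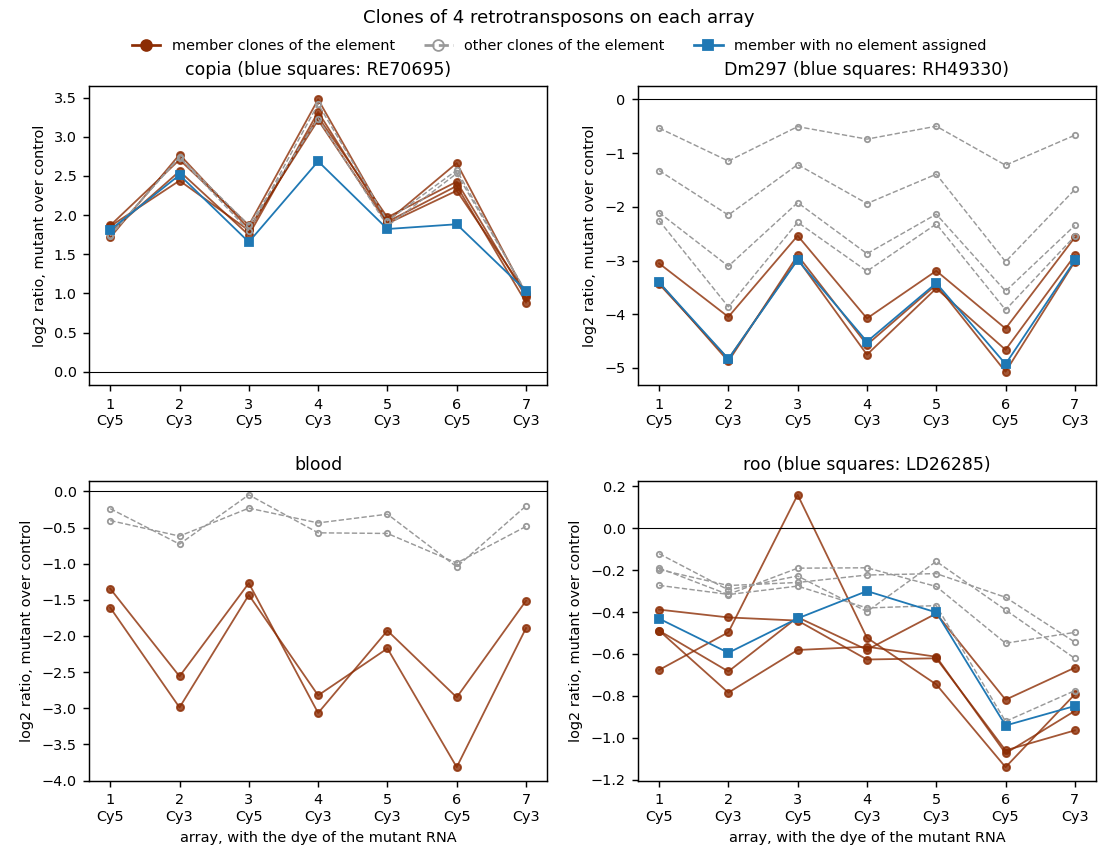
Log2 ratios, mutant over control, of single clones of copia, Dm297, blood and roo on the 7 arrays (labelled with the dye of the mutant RNA): filled circles are members, open circles other clones assigned to the element, and squares a member without an element assignment. The squares of RH49330 follow the lower Dm297 clones and those of LD26285 the roo clones, while RE70695 lies well below the copia clones on arrays 4 and 6.

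Of the 8 elements with a single member, 4 were higher. Stalker2 (SD04061) ran from 0.41 on array 7 over a median of 1.09 to 1.66 on array 2, with a mean of 1.11 ± 0.41, a 2.16-fold higher level. Opus (LD21171) ran from 0.50 on array 7 over 0.79 to 2.16 on array 4, with a mean of 1.06 ± 0.61. Stalker (RH61266) had a mean of 0.82 ± 0.48 and was near 0 on array 7, at -0.01, while its highest value was 1.51 on array 4. All 3 are gypsy-type elements, and each had its lowest ratio on array 7, as did the 4 copia clones. The Max-element (RH02410), of the BEL superfamily, had a mean of 0.63 ± 0.27 and was positive on all 7 arrays. Clones of these families outside the rule were RE41137 (Rnf11), assigned to Stalker2, at 0.68, and RH39561, assigned to the Max-element, at 0.31.

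The 4 lower elements with a single member all had means near the threshold. HMS-Beagle (RE43210), in a clone that also holds part of Prosap, the gene of a synaptic scaffold protein, ran from -0.92 on array 4 over a median of -0.65 to -0.40 on array 3, with a mean of -0.65 ± 0.19. Other clones of Prosap were at 0.08 and 0.03, with SDs of 0.125 and 0.222, and so did not share the lower value. TART-A (GH16383), a telomeric element without terminal repeats of the LTR kind, had a mean of -0.63 ± 0.37, from -1.11 on array 6 to -0.02 on array 4. Dm412 (GM07634) had a mean of -0.55 ± 0.21 and Tirant (SD21648) of -0.55 ± 0.36. Tirant was near 0 on arrays 1 and 3, at 0.03 and -0.10, and between -0.89 and -0.63 on the other 5. Clone RH50636, which carries the symbol MtnA (metallothionein) and is assigned to the F-element, had a mean of -1.25 but has a single symbol and is no member.

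The averages of several elements ran in parallel or in mirror image over the arrays. Over the 7 arrays the averages of Dm297 and blood correlated with r = 0.951, copia and opus with 0.941, and copia and Stalker with 0.931. Dm297 and Stalker2 had r = -0.892, and Dm297 and copia -0.844. Other pairs had r near 0, such as Dm297 and TART-A at -0.001 and copia and roo at 0.04. All 66 pairs of elements were compared, the points share the same 7 labelled pairs of RNA, and r is a description without a test. Arrays 2, 4 and 6 were the 3 with the largest values of both copia and Dm297. They also had the largest SDs over all features, at 0.326, 0.338 and 0.427, against 0.290 to 0.303 on the others. The part of this array-wide spread in the correlations was not tested.

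Many element members came from a pair of cDNA libraries. The prefix SD (a cell line library, from Schneider cells) was carried by 9 of the 21 element members and by 7.67% of the 1629 features without a single gene, and RH (adult head) by 6 members and 12.8% of these features. The difference was not tested. In all, 15 of 21 element members and 7 of 41 other members had one of these prefixes. Whether the library has a part in the ratios was not tested. Genes of transposon silencing were compared as the other side of the pathway. Of 37 genes listed, 26 were measured. Of these, del, which acts on piRNA clusters in the germ line, passed as higher at 0.37, mod(mdg4), a chromatin gene, had 1 of 3 features that passed as lower and a mean of -0.10 over the 3, and 24 passed neither way. This is near the share of all features that passed, 6.11%. Their median of 0.00 lay beside -0.01 over all features.

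RH49330 carries the symbols CG5167, which is also its gene in the study's list, and Eaat2, the gene of a glutamate and aspartate transporter. Its ratio ran from -4.93 on array 6 over a median of -3.42 to -2.99 on array 3, with a mean of -3.87 ± 0.86, a 14.6-fold lower level. Other clones of Eaat2 were at -0.03 ± 0.30 (GH09856) and -0.07 ± 0.13 (RH50116), so that no array of either clone overlapped with RH49330. For CG5167 no other feature was measured. The feature nearest to it in profile among all 10227 was the Dm297 clone RH49548, with a root mean square difference of 0.0699, a largest difference of 0.143 on any array and r = 0.999. The next 2 were the other Dm297 members. No element is assigned to RH49330 in the study's list, and none is assigned here.

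LD26285, which has neither symbol nor assignment, sat among the roo clones. It ran from -0.94 on array 6 over a median of -0.43 to -0.30 on array 4, with a mean of -0.56 ± 0.24. The 4 features nearest to it were all assigned to roo, namely RE11569, SD08865, SD16292 and RH43693, with root mean square differences from 0.141 to 0.174. Next came a clone of CG40160 (LD13269) at 0.182. The feature nearest to the roo clone RE11569 was itself a clone of CG5727, at 0.124, so such nearness is not particular to roo. It was the 1 unassigned member that passed limma.

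RE70695, listed as several sequences, had the highest mean outside copia among the members. Its ratio ran from 1.03 on array 7 over a median of 1.82 to 2.69 on array 4, with a mean of 1.91 ± 0.55, a 3.77-fold higher level. The nearest feature was a clone of Cyp4e2, a cytochrome P450 gene, at a root mean square difference of 0.270, followed by copia clones from 0.286 to 0.311. On arrays 3, 4, 5 and 6 it lay below all 4 copia members. The other clone of this class, GM04658, had a mean of -0.53 ± 0.33, from -0.99 on array 5 to 0.06 on array 4.

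RH51533, with the symbols CG13216 and CG13227, was also lower. It ran from -1.77 on array 2 over a median of -1.19 to -0.53 on array 3, with a mean of -1.15 ± 0.42, a 2.22-fold lower level. A second clone of CG13216, RE71337, was at -0.01 ± 0.11, and its values did not overlap with those of RH51533 on any array. The feature nearest to RH51533 was SD17344, a clone of CG18661, at a root mean square difference of 0.225. No element is assigned to RH51533 in the study's list, and whether it holds element sequence was not tested.

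For several clones with more than 1 symbol, a second clone of 1 of the genes gave nearly the same values. RE05501 carries Prx6b and CG12896, adjacent genes in the RefSeq order, the first of which encodes a peroxiredoxin. It had a mean of 0.88 ± 0.85, from -0.54 on array 1 to 1.83 on array 5, and RH54193, a clone of Prx6b, had 0.84, with r = 0.994. GH12215 carries kek3, a gene of a leucine-rich repeat membrane protein, and Sirup, a mitochondrial assembly factor gene, and had a mean of 0.85 ± 0.73. The Sirup clone GH18422 followed it closely at 0.82 (r = 0.993), and a second spot of GH12215, annotated kek3 alone, had 0.79. These 2 members were the higher ones that did not pass limma, and both had their lowest ratio, below 0, on array 1.

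RH60445 carries mRRF2, a mitochondrial ribosome factor gene, and Got1, a glutamate oxaloacetate transaminase gene from another chromosome arm. It ran from -0.10 on array 6 over a median of 0.71 to 0.89 on array 2, with a mean of 0.56 ± 0.34. The Got1 clones LD23191 at 0.49 and RH50682 at 0.43 had similar values (r = 0.965 and 0.952). AT25373 carries CG31287 and Eno, the enolase gene, and had a mean of 0.57 ± 0.22 beside 0.75 for the Eno clone SD23356. GH10714 carries Inos, the gene of the enzyme that starts inositol synthesis, and CG3842, and had 0.76 ± 0.30 beside 0.65 for the Inos clone GM13306. In these cases the mean of the second clone had the sign of the member's and lay within its SD.

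For other clones the second clone differed. LD21131, with GstS1 (a glutathione transferase gene) and CG13088, had a mean of 0.58 ± 0.25, while AT13284 with the same symbols had 0.27 and the CG13088 clone AT02038 had -0.09. LD01981 carries CG34036 and PMCA, the gene of the plasma membrane calcium pump, and had 0.56 ± 0.25, while GM07606 with the same symbols was at -0.07. In RefSeq, CG34036 is a synonym of PMCA. LD34576 carries Cyp12d1-d and Cyp12d1-p, near-identical cytochrome P450 genes whose RNAs a cDNA spot cannot be assumed to separate, and had a mean of -0.70 ± 0.26.

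**Figure D3:**
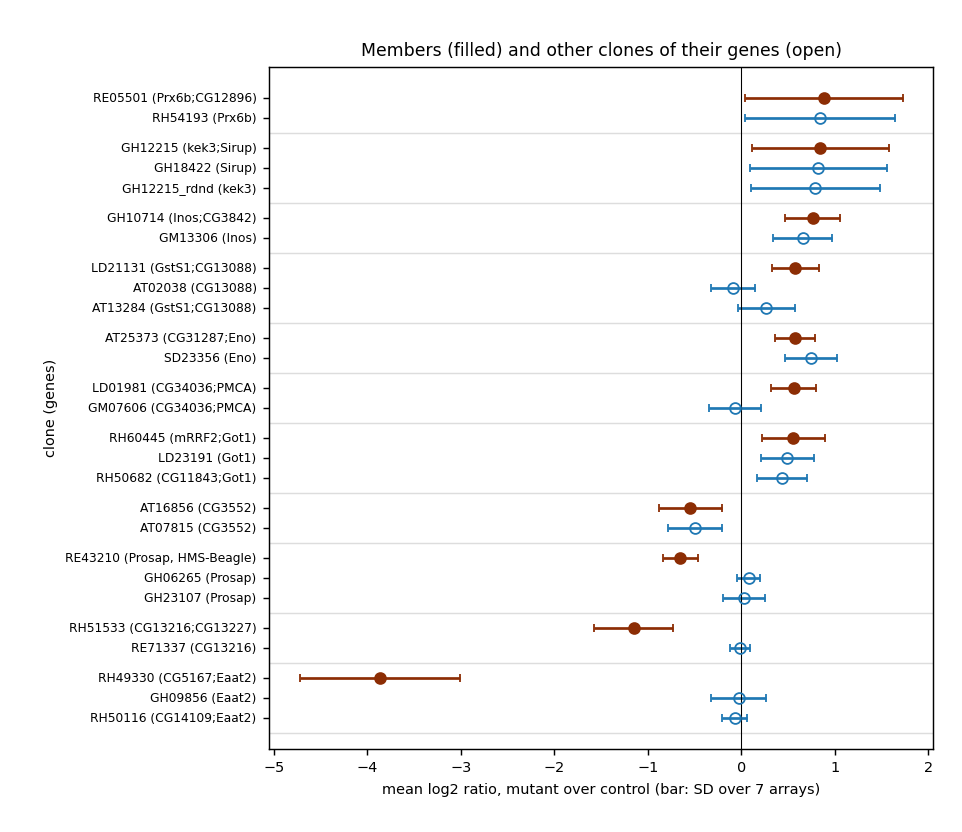
Mean log2 ratio, mutant over control, with the SD over 7 arrays, of 11 members (filled) and of other clones of their genes (open). Prx6b, Sirup, Inos, Eno, Got1 and CG3552 clones lie beside the member, whereas the clones of Eaat2, CG13216, Prosap and PMCA lie near 0 and apart from it.

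Clones with the symbols CG32500, CG33502 and CG32857 straddled the threshold. RefSeq lists Nfu, an iron-sulphur cluster protein, as a synonym of all 3, and they lie on a single arm. RH16335 had 0.53 ± 0.18 and RE53788_ReAmp 0.51 ± 0.14, and both were positive on all 7 arrays. The third clone, GM32035, had 0.49 ± 0.16 and fell just outside the rule. The same arbitrariness held elsewhere at the threshold. Just inside on the higher side was also HL05382, known only as FBgn0050015, at 0.52, and just outside were GH12326 at 0.50 and RE38281 (sca) at 0.49. Just inside on the lower side were RE28911 at -0.52 and GM04658 and RE52740 at -0.53, and just outside were LP07247 at -0.50, GH25379 at -0.49 and LP01749 at -0.45.

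Among the 13 higher clones that have a gene in the study's list only, S-Lap1, a sperm leucyl aminopeptidase gene, was the highest. AT03383 ran from 0.83 on array 1 over a median of 1.24 to 1.88 on array 6, with a mean of 1.29 ± 0.36, and GH13022 from 0.40 on array 1 over 1.36 to 1.78 on array 2, with 1.17 ± 0.50. Both clones were positive throughout and differed by up to 0.471 on an array (r = 0.773). LP03188, a clone of the long non-coding RNA lncRNA:CR33938, had a mean of 1.26 ± 0.67, with a ratio of 2.58 on array 6 and a median of 1.13.

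RE21178, a clone of phr, which encodes a DNA photolyase, ran from 0.48 on array 7 over a median of 0.62 to 1.34 on array 6, with a mean of 0.75 ± 0.30. It was positive on all 7 arrays. GH21247, with CG18853 and CG12822, which lie close to phr in the gene order of RefSeq, had 0.68 ± 0.13, the smallest SD of all members. It was between 0.52 and 0.82 on all 7 arrays.

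The 3 clones of chrb, a growth inhibitor acting on the TOR pathway, had means of 0.67 (LD22381), 0.59 (GH09771) and 0.57 (LD32080). Their profiles were less alike than those of the copia clones, with r from 0.423 to 0.923 (3 pairs). LD27480, a clone of the ubiquitin-conjugating enzyme gene Ubc4, had 0.59 ± 0.22 and was the feature nearest to LD22381. Others of the class were GH06241 (Jheh1, a juvenile hormone epoxide hydrolase gene) at 0.57 ± 0.41, LD23883 (chn, a zinc-finger transcription factor gene of the nervous system) at 0.56 ± 0.22, LD43740 (modSP, a serine protease gene upstream of Toll) at 0.54 ± 0.17 and HL05382.

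The lowest of the 6 lower clones with a gene in the list were those of Gapdh2 and Mdh2. RH55882, a clone of the glycolytic gene Gapdh2, ran from -3.01 on array 6 over a median of -0.99 to -0.03 on array 3, with a mean of -1.19 ± 1.0. RE60471, a clone of the mitochondrial malate dehydrogenase gene Mdh2, ran from -2.25 on array 6 over -0.79 to -0.26 on array 3, with a mean of -0.96 ± 0.69. Both were below 0 on all 7 arrays, but their means moved to -0.89 and -0.74 without array 6. Their profiles correlated with r = 0.991. The 3 clones of Gapdh1, which encodes the other form of the enzyme, had means of -0.38, -0.40 and -0.25.

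GH25089, a clone of CR32314, had a mean of -0.85 ± 0.59 and a ratio of -2.08 on array 6, with the other 6 between -0.87 and -0.19. AT16856, a clone of CG3552, was at -0.55 ± 0.34, and a second clone of that gene, AT07815, outside the rule, was at -0.49 (r = 0.908). GH14845, a clone of the adenosine kinase gene Adk2, was at -0.54 ± 0.30. RE52740, a clone of Orc6, a subunit of the origin recognition complex, was at -0.53 ± 0.39.

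The 6 unassigned members that did not pass limma had the same outline over the arrays. RE62456 had the widest spread of all members, with a mean of -0.82 ± 1.86, a ratio of 2.70 on array 3 and of -2.61 on array 6. RE28911 had a mean of -0.52 ± 1.12, with 0.98 on array 3 and -2.42 on array 6. RE50650 (-0.72 ± 0.83), RE67111 (-0.60 ± 0.63), RE30552 (-0.53 ± 0.65) and SD01985 (-0.55 ± 0.57) were likewise highest on array 1 or 3 and lowest on array 6. The 15 pairs among the 6 had a median r of 0.912, from 0.726 to 0.989, and the pairs with the Gapdh2 and Mdh2 clones a median of 0.948. Without array 6, RE28911, RE30552, RE50650, RE67111 and SD01985 left the threshold, as did GH14845. The low array 6 ratios of these unassigned clones thus made them members and also enter each r above. The shared outline is therefore partly set by the rule.

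RE62456 lay closest in profile to cuticle genes. The nearest features were LP01749 (Lcp65Ag1 and Lcp65Ag2, larval cuticle proteins) at a root mean square difference of 0.463, then clones of Cpr47Eg, TwdlN and TwdlB. A list of 55 cuticle protein features of 54 genes, chosen after this was seen, had 0 features passing limma, where 6.11% of all features passed, and a mean of -0.13 ± 0.51. Its mean was highest on array 3 at 0.63 and lowest on array 6 at -0.99, and correlated with RE62456 at r = 0.857 over the 7 arrays. The part of the cuticle genes in the mean of RE62456 was not tested. SD01985 had as its nearest feature a clone of l(2)efl, a small heat shock protein gene, at 0.110, and RE50650 had a clone of CG31997 at 0.198.

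**Figure D4:**
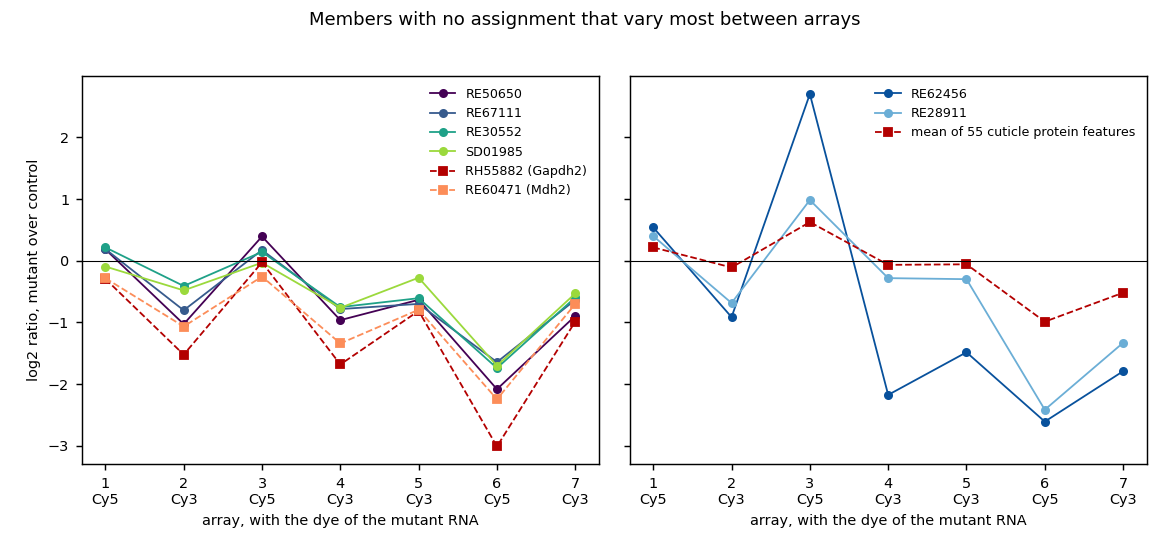
Log2 ratios, mutant over control, on the 7 arrays (labelled with the dye of the mutant RNA) of the 6 unassigned members that did not pass limma, with the Gapdh2 and Mdh2 clones on the left and the mean of 55 cuticle protein features on the right. All lines but that of RE62456 stay within 1 unit of 0 on array 3, and each of them is lowest on array 6.

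Members did not share a single array pattern. Of the 30 lower members, 20 had their lowest ratio on array 6, where 22.6% of all features were lowest, and of the 32 higher members 14 had their highest on array 4, where 13.7% were highest. The rule used the mean of these ratios, so an extreme ratio on an array helps to make a clone a member. The shares over all features are therefore not a like background, and nothing is read from the contrast. The median of the lower members was -1.45 on array 6 and between -0.82 and -0.41 on the other arrays. The median of the higher members ran from 0.46 on array 7 to 0.96 on array 4. Members varied more than other features, with a median SD over arrays of 0.377 against 0.195, a contrast that the size of the ratios and the rule both enter.

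The dye orientation gave a comparison that the rule did not use directly. The difference between the arrays with mutant RNA in Cy5 and in Cy3 is uncorrelated with the mean of all 7 only under equal spread. Array 6, a Cy5 array, had a larger SD than the others (0.427 against 0.290 to 0.338). The choice of members can therefore enter this difference, and the counts of members that passed are a description. In limma with a term for orientation, 2 of the 62 members passed, while 11.5% of all features did, 4.66% with higher values on the Cy5 arrays and 6.87% with lower ones. RE52740 (Orc6) had a mean of -0.17 on the 3 Cy5 arrays and of -0.81 on the 4 Cy3 arrays, a difference of 0.64 with a standard error of 0.14 (limma adjusted p = 0.0238). LD23883 (chn) had 0.36 and 0.72, a difference of -0.37 with a standard error of 0.098 (limma adjusted p = 0.0458). The call for Orc6 was lost without array 1, 2 or 5 (limma adjusted p = 0.105, 0.0648 and 0.0844), and that for chn was kept only without array 6, among the 7 fits that left out an array. Copia averaged 2.02 and 2.20 in the Cy5 and Cy3 arrays and Dm297 -3.59 and -3.82, while Tirant averaged -0.23 and -0.79, and none of the element members passed. All 45 features with a mean over 1 in size, members or not, had the same sign in both orientations. A mean of that size leaves little room for opposite signs, so nothing is read from this.

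Leaving out array 6 changed this comparison most. Then 16 of 62 members (25.8%) passed the orientation term, near the 22.7% of all features that did. They included all 6 unassigned members that had not passed limma. Of the 16, 13 were higher on the Cy5 arrays. The split by direction over all features in this fit is not given here, so nothing is read from that count. RE62456 had the largest difference, at 3.21 with a standard error of 0.51 (limma adjusted p = 0.00348). Gapdh2 (1.09), Mdh2 (0.71), RH51533 (0.80), the blood clone SD06908 (0.95) and the Tirant clone (0.75) were among them, and the S-Lap1 clone GH13022 had a difference of -0.90. Dye and differences between the embryos of the pairs cannot be told apart, because each pair was hybridised in a single orientation.

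**Figure D5:**
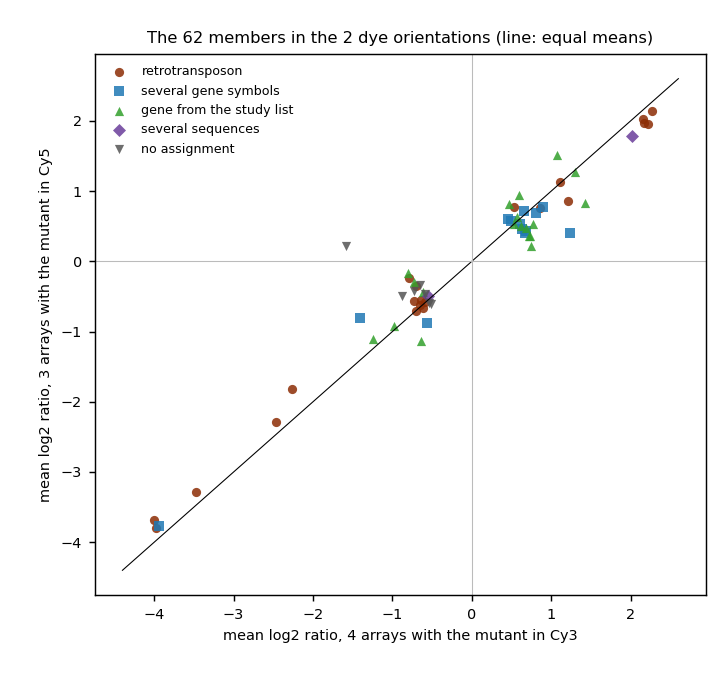
Mean log2 ratio, mutant over control, of the 62 members on the 3 arrays with the mutant RNA in Cy5 (vertical) against the mean on the 4 arrays with it in Cy3 (horizontal), by class. Points lie along the line of equal means, with RE62456, at 0.21 and -1.59, as the farthest from it and the 1 member whose orientation means differ in sign.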

How the data were processed

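GenePix intensities were read into limma by the authors without background correction. Print-tip loess was applied within each array and scaling across arrays, and the deposited values are the resulting log2 ratios, with a column for each array (the limma version is not given in the sources used here). Brightness of single spots was not analysed here, and the number of arrays sets the precision. Of 10376 features, 149 control spots were left out.

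The table does not state its numerator. All signs were turned because 13 of 13 clones of the study's quantitative RT-PCR table (14 listed, a 15th, GH12581, left out for a conflicting gene name) had deposited ratios opposite in sign to the array fold changes given beside them. These values come from the same arrays. In that table, quantitative RT-PCR on separate RNA has the sign of the array fold change for each gene that passed by that assay, and copia is described as increased. The table of ratios itself does not give the direction, which is therefore called likely. Correlations between arrays over all features ran from -0.174 to 0.837.

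Linear models with moderated errors (lmFit, eBayes) were run in limma 3.58.1 under R 4.3.3 (two-sided moderated test of the mean against 0, or of a term for dye orientation, with Benjamini-Hochberg adjustment over 10227 features at 0.05). Profiles were compared by root mean square difference and Pearson's r over 7 arrays. Elements were averaged over clones on each array first, since clones of an element are not replicates. Elements with numeric names carry the prefix Dm. Gene names and order come from RefSeq (Release 6 plus ISO1 MT).

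The members and lists were chosen with earlier results of these data known, and the cuticle list after profiles were seen. Named are all element members, members with several symbols or a listed gene, members of at least 1 in size, those at the threshold or passing the orientation term, and other clones of their genes. A single member with a listed gene is counted but not reported here by name. The unassigned members that are smaller were named after their values were seen. Alternatives were leaving out each array, thresholds of 0.4 and 0.6, centring, equal weight of orientations, medians, a minimum fold of 1.1, control spots kept, and array weights.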

Additional observations from a re-analysis of the deposited data

Results flagged for a closer look

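On 4 of the 62 members, a single array lay far from the other 6 by Dixon's ratio of the gap to the whole range. Chance alone flags about 1 group in 20. The chrb clone GH09771 had -0.14 on array 7, with the others between 0.56 and 0.99, and its mean moves from 0.59 to 0.71 without that array. LD01981 (CG34036 and PMCA) had 0.042 on array 1, with the others between 0.50 and 0.79, and its mean moves from 0.56 to 0.64. LD34576 (Cyp12d1-d and Cyp12d1-p) had -1.25 on array 6, with the others between -0.72 and -0.50, and its mean moves from -0.70 to -0.61. GH25089 (CR32314) had -2.08 on array 6, with the others between -0.87 and -0.19, and its mean moves from -0.85 to -0.65. All 4 means stayed past the threshold of 0.5 without the array.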

How the results depend on the processing

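Over the 17 results tried, 164 alternative values kept their direction and stayed within the SD over arrays or, for counts, within a wide margin. Another 11 moved and 0 reversed. The margin for counts took in 45 higher and 36 lower members at a threshold of 0.4, against 32 and 30. It also took in 17 lower members passing limma without array 4, 5 or 7, against 24. At a threshold of 0.6 there were 19 higher and 19 lower members. Of the lower members, 14 passed with a minimum fold of 1.1. Leaving out each array in turn gave 28 to 38 higher and 27 to 34 lower members. In these fits 26 to 31 higher and 14 to 25 lower members passed limma, with the 14 coming without array 2. The shares of all features that passed limma in these fits, or with the minimum fold, are not given here. Nothing is therefore read from these counts. From 0 to 16 members passed the orientation term. The 16 came without array 6, where 22.7% of all features passed. The 0 came without array 1, 2 or 5, where 1.86% to 4.29% passed. Without array 2, 9 of the 62 members left the threshold and 2 others entered, and without array 6, 6 left and 10 entered. The cause of these moves was not tested. The Tirant clone was among those that left without array 2 and also left without array 5, with means of -0.49 and -0.50, the second just short of the threshold. The pairing of mutant and control was kept, because each ratio sets a mutant sample against the control collected with it. Arrays of the 2 orientations could not be paired with each other, because they share no replicate number.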
